A study of Mus musculus with 18 samples.

Results

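Cullin-RING ligases are the largest family of ubiquitin ligases, and the part of them that picks the protein to be marked is the substrate receptor. The genes described here are those of 7 receptor families, Fbxl, Fbxo, Fbxw, Klhl, Dcaf, Asb and Socs, taken by gene symbol as the family name followed by a number and at most 1 letter. Of the 55487 genes counted, 151 had such a symbol, and 127 of them had at least 10 reads in 4 or more of the 18 libraries and were kept. They were 18 of 18 Fbxl genes, 33 of 36 Fbxo, 9 of 24 Fbxw, 33 of 36 Klhl, 12 of 12 Dcaf, 15 of 18 Asb and 7 of 7 Socs genes. Asb11, Asb15, Asb18 and Klhl32 reached 10 reads in 4 libraries and were just kept, whereas Klhl14 and Asb12 did so in 2 libraries and were not.

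RNA was sequenced from subcutaneous white adipose tissue (sWAT) of 4 Ctrl and 4 Csn8AKO mice at 12 weeks of age and from brown adipose tissue (BAT) of 5 Ctrl and 5 Csn8AKO mice at 4 weeks of age. All were male and fasted for 4 h. Both genotypes carried floxed Csn8 alleles (Csn8 f/f), and the Csn8AKO mice also carried Cre recombinase under the adiponectin promoter (Adipoq-Cre), which removes exons 4 to 6 of Csn8 in adipocytes, while the Ctrl mice were Csn8 f/f littermates without Cre. The RNA came from whole tissue, so that cells without the deletion are in every library, and fewer cells of a type and less RNA per cell cannot be told apart. Tissue and age cannot be told apart either. The libraries held 15835721 to 66719937 counted reads, of which 1 ribosomal RNA gene took 0.711% to 46.8%. Its share was 1.73% to 18.9% in Ctrl and 3.81% to 46.8% in Csn8AKO sWAT. In BAT it was 0.711% to 8.06% in Ctrl and 0.872% to 12.4% in Csn8AKO libraries. Library totals include this gene, also where totals alone are used for scaling below. Csn8, named Cops8 in the annotation, was at 33.9 to 36.2 CPM (reads relative to the TMM-scaled total of the library) in Ctrl sWAT and 29.2 to 36.1 CPM in Csn8AKO sWAT (log2 fold change -0.12, adjusted p = 0.623, edgeR), and at 36.5 to 44.6 and 28.2 to 36.9 CPM in BAT (log2 fold change -0.30, adjusted p = 0.0211, edgeR). A count over the whole gene includes transcripts that lack the deleted exons.

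In these ligases a cullin is the scaffold. It binds a RING protein at one end and, at the other, an adaptor with the receptor. CUL1 takes F-box proteins, the Fbxl, Fbxo and Fbxw families, through SKP1. CUL3 binds the BTB domain of Klhl proteins without a separate adaptor, CUL4A and CUL4B take Dcaf proteins through DDB1, and CUL5 takes the SOCS box proteins of the Asb and Socs families through elongins B and C. A cullin is active when NEDD8 is attached to it, and the COP9 signalosome, of which CSN8 is a subunit, takes NEDD8 off again, so that receptors can be exchanged. Several receptors are destroyed by their own ligase, but RNA counts do not show the amount of the proteins. Whether the RNA of receptor genes differed between genotypes was the question in each tissue.

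In Csn8AKO sWAT, 1 receptor gene rose and 2 fell. Fbxl5 rose 1.75-fold, whereas Klhl2 fell 2.12-fold and Fbxo45 fell 2.03-fold. They were 3 of the 114 receptor genes tested (2.63%), against 5.31% of all 18843 genes tested (edgeR quasi-likelihood test, adjusted p under 0.05). The gene that rose compares with 2.30% of all genes called higher, and the 2 that fell with 3.00% called lower. Both that fell also passed a log2 fold change of 1, as did 1.91% of all genes in that direction, whereas the gene that rose did not, as against 1.41% of all genes.

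Fbxl5 (ENSMUSG00000039753, GRCm38 chromosome 5, 43744615 to 43821638, minus strand) encodes the F-box protein that senses iron and oxygen and directs the destruction of iron regulatory protein IRP2 when iron is plentiful. Its level was 61.0, 55.2, 57.6 and 65.1 CPM in the 4 Ctrl sWAT libraries and 126, 82.8, 91.8 and 116 CPM in the 4 Csn8AKO libraries. Every Csn8AKO library lay above every Ctrl library, and Csn8AKO replicates 1 and 4 were the highest. The means were 59.7 ± 4.31 and 104 ± 20.3 CPM (SD, n = 4 each), with a log2 fold change of 0.80 (SE 0.15, adjusted p = 0.0178, edgeR). The adjusted p rose to 0.0706, 0.0711 and 0.0508 (edgeR) when Ctrl replicates 2, 3 and 4 were left out in turn, and to 0.441 when libraries were scaled by their total alone. In BAT, Fbxl5 was at 35.0 ± 5.26 CPM in Ctrl and 36.2 ± 1.14 CPM in Csn8AKO mice (SD, n = 5 each), with overlapping groups (log2 fold change 0.05, adjusted p = 0.749, edgeR).

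Klhl2 (ENSMUSG00000031605, chromosome 8, 64739675 to 64850017, minus strand) encodes an actin-binding BTB-Kelch protein that brings WNK kinases to CUL3. Its level was 174, 139, 204 and 196 CPM in Ctrl sWAT and 93.2, 59.5, 71.6 and 112 CPM in Csn8AKO sWAT, without overlap. The log2 fold change was -1.08 (SE 0.21, adjusted p = 0.0193, edgeR). Leaving out Csn8AKO replicates 1 or 3 or Ctrl replicates 3 or 4 gave adjusted p-values of 0.05, 0.0762, 0.0680 and 0.0654 (edgeR). Klhl2 was the 1 receptor gene called in both tissues. In BAT it went from 58.6 ± 5.00 to 46.9 ± 3.47 CPM (SD, n = 5 each), again with every Csn8AKO library below every Ctrl library (log2 fold change -0.32, SE 0.08, adjusted p = 0.00710, edgeR).

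Fbxo45 (ENSMUSG00000035764, chromosome 16, 32230112 to 32247158, minus strand) encodes an F-box protein known from nerve development, which binds SKP1 and the RING protein MYCBP2 in place of CUL1. It was at 47.5, 46.8, 53.2 and 50.7 CPM in Ctrl sWAT and at 26.8, 18.4, 24.1 and 28.5 CPM in Csn8AKO sWAT. The groups lay far apart (log2 fold change -1.02, SE 0.15, adjusted p = 0.00593, edgeR), and the call was lost under 1 alternative, the scaling by total alone, with an adjusted p of 0.0614. In BAT the means were 14.6 ± 2.36 and 13.9 ± 2.08 CPM (SD, n = 5 each), with overlapping groups (log2 fold change -0.07, adjusted p = 0.713, edgeR).

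**Figure D1:**
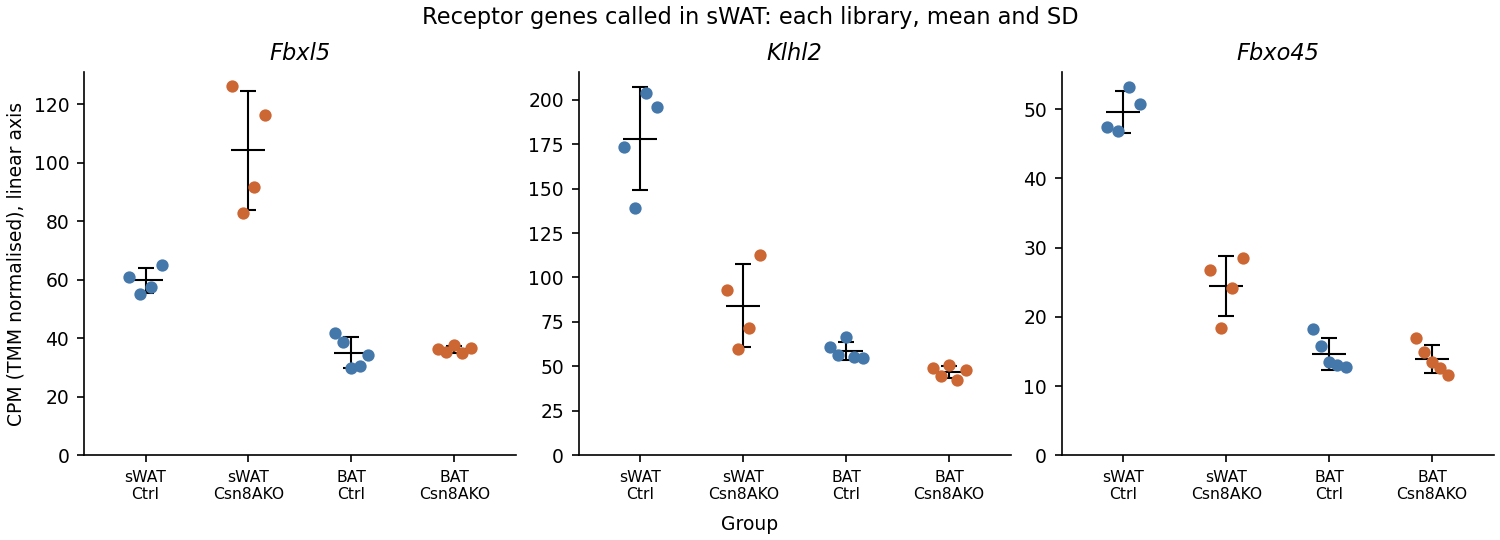
TMM-normalised CPM (linear axis from 0) of Fbxl5, Klhl2 and Fbxo45 in each library of the 4 groups, with the mean and SD as bars. In sWAT the 4 Csn8AKO points lie above the Ctrl points for Fbxl5 and below them for Klhl2 and Fbxo45, while in BAT the groups overlap for Fbxl5 and Fbxo45.

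Fbxo21, an F-box protein whose ligase degrades the transcriptional regulator EID1, had the highest level per kilobase of gene length among the receptor genes in Ctrl mice of both tissues, at 39.0 ± 14.2 CPM per kilobase in sWAT (SD, n = 4) and 61.6 ± 14.6 CPM per kilobase in BAT (SD, n = 5). The next in sWAT, Fbxo22 at 20.4 ± 1.23 CPM per kilobase, was separated from it by little more than the SD of Fbxo21, and Klhl2 followed at 19.3 ± 3.14 CPM per kilobase, within its SD of Fbxo22. Of the length of Fbxo22, 15.4% overlaps Nrg4 on the other strand. In BAT, Fbxw5 followed at 33.2 ± 1.58 and Fbxo31 at 29.7 ± 11.2 CPM per kilobase, which do not differ beyond their spread. Within Csn8AKO sWAT, Fbxo21 was at 78.9, 52.5, 96.7 and 136 CPM, against 121, 231, 201 and 311 CPM in Ctrl sWAT. Csn8AKO replicate 4 lay above Ctrl replicate 1, so that the groups overlapped, and the log2 fold change of -1.25 (SE 0.34) did not pass the test (adjusted p = 0.0666, edgeR). Over the alternatives its adjusted p ran from 0.00449 (DESeq2) to 0.168.

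Asb13, Klhl7 and Dcaf8 were at lower levels in all Csn8AKO than in all Ctrl sWAT libraries without passing the test. Asb13, a SOCS box protein of CUL5 ligases, was at 20.5 ± 0.765 CPM in Ctrl and 15.2 ± 1.53 CPM in Csn8AKO sWAT (SD, n = 4 each, log2 fold change -0.43, adjusted p = 0.0926, edgeR). Klhl7, a CUL3 receptor mutated in a form of retinitis pigmentosa, was at 28.4 ± 3.18 and 19.5 ± 3.67 CPM (log2 fold change -0.54, adjusted p = 0.0853, edgeR). Dcaf8 had the highest mean level per kilobase of the Dcaf genes in Ctrl mice, within the spread of the next, Dcaf12 in sWAT (12.8 ± 0.843 and 12.6 ± 0.394 CPM per kilobase) and Dcaf6 in BAT (14.6 ± 1.02 and 13.8 ± 0.995 CPM per kilobase). In sWAT it was at 167 ± 11.0 and 126 ± 8.98 CPM (log2 fold change -0.40, adjusted p = 0.0911, edgeR). In all, the groups did not overlap for 14 of the 114 receptor genes in sWAT (12.3%), against 14.0% of all genes tested. Csn8AKO was lower in 11 of them (9.65%, against 8.23%) and higher in 3 (2.63%, against 5.80%).

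By family, edgeR called 1 of 18 tested Fbxl genes higher, 1 of 28 Fbxo genes lower and 1 of 29 Klhl genes lower in sWAT. It called 0 of 9 Fbxw genes, of which 2 had an unadjusted p under 0.05, and DESeq2 and limma voom called 0. Among 12 Dcaf genes edgeR called 0, with 3 at an unadjusted p under 0.05, and DESeq2 and voom called 1 lower each. It also called 0 of 11 Asb genes, 3 of them at an unadjusted p under 0.05 and all 3 lower, and the other tools called 1 lower each. For the 7 Socs genes all 3 tools called 0, and 0 had an unadjusted p under 0.05. The edgeR counts stand beside 2.30% of all genes called higher and 3.00% called lower in sWAT. Of all 18843 genes tested, 1862 had an unadjusted p under 0.05 in the higher direction and 1976 in the lower. DESeq2 called 1946 of them and limma voom 2155. The median log2 fold change was -0.03 for Fbxl, -0.10 for Fbxo, 0.03 for Fbxw, 0.01 for Klhl, 0.06 for Dcaf, -0.38 for Asb and 0.07 for Socs genes, beside 0.03 for all genes tested. The Asb median was the lowest, and 1 of the 11 tested Asb genes had a positive log2 fold change. The lowest values were those of Asb5 (-0.85), Asb15 (-0.81) and Asb14 (-0.73), named after their values were seen, which were all highest in Ctrl replicate 3, the library with the most skeletal muscle RNA. Of 19 skeletal muscle markers tested in sWAT, 0 had a positive log2 fold change and the median was -0.80, and their part in the Asb values was not tested. With scaling by totals alone the Asb median was -0.48, beside -0.04 for all genes. The summed Asb level was 108 to 124 CPM in Ctrl and 97.3 to 104 CPM in Csn8AKO sWAT.

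**Figure D2:**
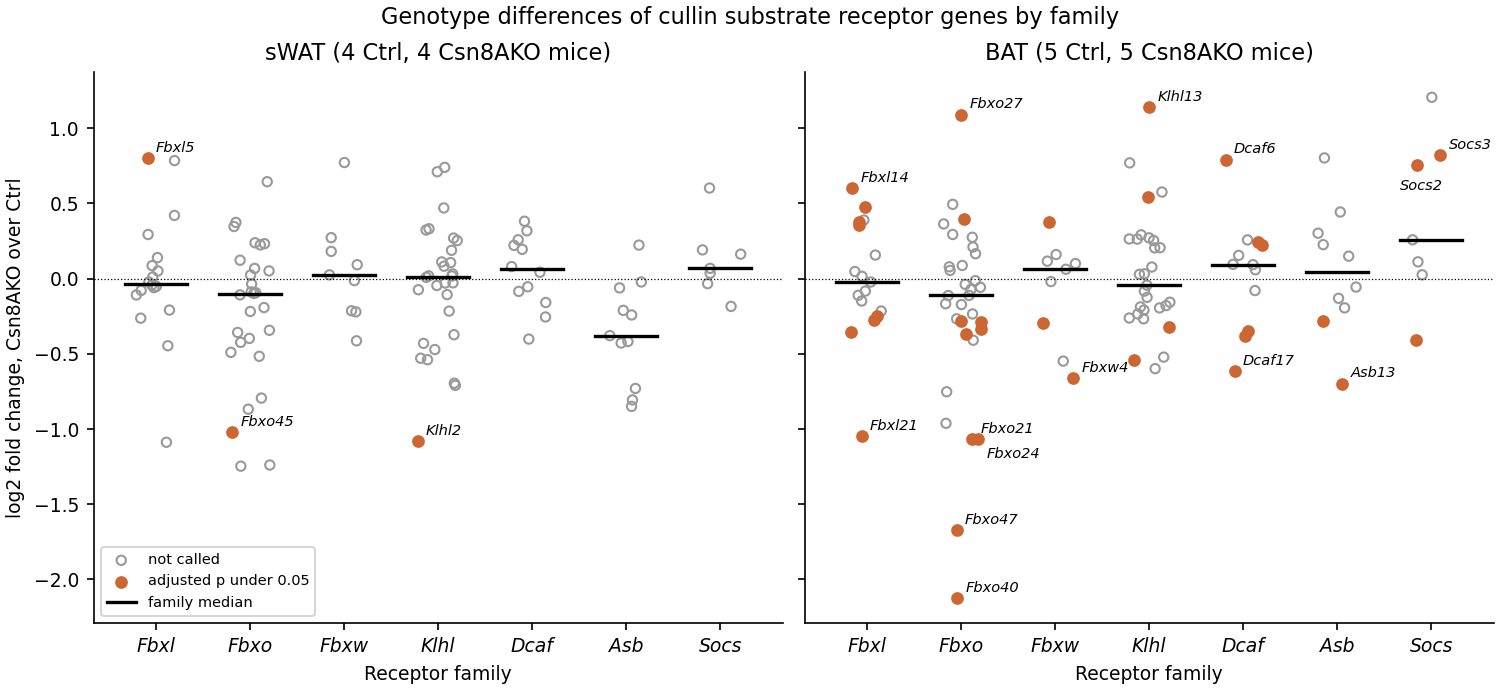
Log2 fold change of each tested receptor gene (Csn8AKO over Ctrl) by family in sWAT and BAT, filled where the adjusted p is under 0.05, with a bar at the family median. In sWAT 3 points are filled and the Asb median lies lowest at -0.38, and in BAT 36 are filled, from Fbxo40 at -2.12 to Klhl13 at 1.14.

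In Csn8AKO BAT, 36 of 116 tested receptor genes (31.0%) passed the test, against 31.9% of all 22345 genes tested, so that their share was near that of genes in general. They were 22 lower (19.0%, against 15.8% of all genes) and 14 higher (12.1%, against 16.0%). The receptor genes with the smallest adjusted p were Dcaf6, which rose 1.73-fold, and Fbxw4, Asb13, Klhl7 and Fbxo21, which fell 1.58-, 1.62-, 1.46- and 2.09-fold. A log2 fold change of 1 was also passed by 5 of the genes that fell (4.31%, against 4.16% of all genes), Fbxo40, Fbxo47, Fbxo24, Fbxo21 and Fbxl21, and by 2 of those that rose (1.72%, against 6.85%), Klhl13 and Fbxo27. The split depended on the scaling. With TMM factors it was 14 higher and 22 lower, and with totals alone, which moved the median of all genes from 0.01 to 0.14, it was 17 higher and 8 lower. The split of all 22345 genes moved in the same direction, from 3585 higher and 3536 lower with TMM factors to 4183 and 2087 with totals alone. The groups did not overlap for 20 receptor genes (17.2%, against 21.0% of all genes). Csn8AKO was lower in 14 (12.1%, against 10.9%) and higher in 6 (5.17%, against 10.1%).

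Fbxo21 (ENSMUSG00000032898, chromosome 5, 117976730 to 118010201, plus strand) was at 309, 369, 240.4, 328 and 460.1 CPM in the Ctrl BAT libraries and at 203, 143, 117, 166 and 186 CPM in the Csn8AKO libraries. The groups did not overlap (log2 fold change -1.06, SE 0.18, adjusted p = 5.55e-04, edgeR), and the call held under every alternative run. The summed level of the 33 Fbxo genes was 1018 to 1206 CPM in Ctrl and 716 to 966 CPM in Csn8AKO BAT. Without Fbxo21 the sums were 708 to 874 and 592 to 823 CPM (means 770.5 ± 67.7 and 649 ± 97.8, SD, n = 5 each). The groups then overlapped through Csn8AKO replicate 2 at 823 CPM, while the other 4 were at 592 to 624 CPM, below every Ctrl library. With Fbxo31 left out too, the groups still overlapped, at 583 to 630 CPM in Ctrl and 542 to 632 CPM in Csn8AKO BAT. Those sums had means of 608 ± 21.6 and 566 ± 38.1 CPM (SD, n = 5 each). Fbxo31, an F-box protein that acts in the DNA damage response and was named after its values were seen, ranged widely, at 118 to 266 CPM in Ctrl and 35.7 to 191 CPM in Csn8AKO BAT, and did not pass the test (log2 fold change -0.96, adjusted p = 0.155, edgeR).

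Fbxw4 (ENSMUSG00000040913, chromosome 19), an F-box gene whose locus is disrupted in the dactylaplasia limb mutant of the mouse, was at 24.6, 20.9, 22.9, 18.7 and 20.01 CPM in Ctrl BAT and at 14.1, 12.7, 13.2, 14.6 and 13.0 CPM in Csn8AKO BAT (log2 fold change -0.66, SE 0.09, adjusted p = 1.31e-04, edgeR). The Csn8AKO libraries were all lower and spread less than the Ctrl libraries. Of its exonic length, 21.4% overlaps a gene on the other strand, Gm17018, and the strand setting of the counting is not given in the sources used here. Asb13 (chromosome 13) was at 18.5, 19.7, 20.7, 17.8 and 21.1 CPM in Ctrl and at 11.6, 10.0, 12.6, 12.0 and 14.0 CPM in Csn8AKO BAT, without overlap (log2 fold change -0.70, SE 0.10, adjusted p = 1.49e-04, edgeR). Klhl7 (chromosome 5) showed the same separation, with 21.9 to 24.7 CPM in Ctrl and 15.1 to 16.9 CPM in Csn8AKO BAT (log2 fold change -0.54, SE 0.08, adjusted p = 1.61e-04, edgeR). These 3 calls held under every alternative run.

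Dcaf17, the gene mutated in Woodhouse-Sakati syndrome, was at 18.0, 15.5, 15.5, 15.1 and 13.0 CPM in Ctrl BAT and at 11.4, 8.95, 9.11, 10.4 and 10.3 CPM in Csn8AKO BAT. It was lower in every Csn8AKO library (log2 fold change -0.62, SE 0.11, adjusted p = 6.96e-04, edgeR), and the call held under every alternative run. Socs5 was at 35.0 to 40.2 CPM in Ctrl and 23.8 to 32.3 CPM in Csn8AKO BAT, also without overlap (log2 fold change -0.41, adjusted p = 0.00223, edgeR), and was the Socs gene of highest level per kilobase in Ctrl BAT. Smaller decreases were those of Dcaf8 (log2 fold change -0.38), Fbxo9 (-0.37), Dcaf11 (-0.35), Fbxw5 (-0.30) and Asb8 (-0.28). These, Socs5 and Klhl2 lost their calls with scaling by total alone, where the adjusted p (edgeR) ran from 0.0745 for Dcaf8 to 0.299 for Asb8, and their direction stayed. Asb8 also lost its call without Csn8AKO replicates 3, 4 or 5 or Ctrl replicates 1 or 2, with adjusted p-values of 0.051 to 0.0686 (edgeR). Another 6, named after their values were seen, Fbxl4, Fbxl17, Fbxl20, Fbxo3, Fbxo8 and Fbxo11, fell by 0.25 to 0.35 on the log2 scale. With totals alone Fbxo3, Fbxo8 and Fbxo11 lost their calls too, and 1 Fbxl gene in all was still called lower.

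Beside Fbxo21, the genes that fell past a log2 fold change of 1 were Fbxo40, Fbxo47, Fbxo24 and Fbxl21, all at low levels. Fbxo47, known from meiosis, was at 1.40, 0.898, 0.791, 0.941 and 0.757 CPM in Ctrl BAT and at 0.472, 0.276, 0.138, 0.274 and 0.267 CPM in Csn8AKO BAT, without overlap (log2 fold change -1.67, SE 0.31, adjusted p = 9.29e-04, edgeR). The call for Fbxo47 held under every alternative run. Fbxl21 and Fbxo24 were named after their values were seen. Fbxl21, a receptor for the clock proteins called cryptochromes, had means of 0.747 ± 0.154 CPM in Ctrl and 0.372 ± 0.148 CPM in Csn8AKO BAT (log2 fold change -1.04, adjusted p = 0.0189, edgeR), with overlapping groups. Fbxo24 went from 1.26 ± 0.546 to 0.574 ± 0.227 CPM, also with overlap (log2 fold change -1.07, adjusted p = 0.0241, edgeR), and 9.95% of its length is shared with neighbouring genes. The call for Fbxo24 was lost with scaling by total alone.

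Dcaf6 (ENSMUSG00000026571, chromosome 1, 165328698 to 165460475, minus strand) encodes a WD40 protein, also called NRIP, that binds nuclear receptors and calmodulin. It was at 86.3, 83.0, 99.4, 85.9 and 90.1 CPM in Ctrl BAT and rose to 119, 158, 189, 149.6 and 154 CPM in Csn8AKO BAT. All Csn8AKO libraries were above all Ctrl libraries (log2 fold change 0.79, SE 0.11, adjusted p = 9.06e-05, edgeR), under every alternative. In sWAT, Dcaf6 was at 51.5 ± 5.29 and 54.4 ± 10.9 CPM (log2 fold change 0.08, adjusted p = 0.834, edgeR). Fbxl14, whose ligase degrades the transcription factor Snail1, was at 25.6, 25.2, 26.8, 21.7 and 28.9 CPM in Ctrl BAT and at 29.2, 33.7, 44.5, 41.9 and 45.4 CPM in Csn8AKO BAT. The groups did not overlap, with Csn8AKO replicate 1 just above the Ctrl libraries (log2 fold change 0.60, SE 0.12, adjusted p = 0.00186, edgeR). Dcaf7, a scaffold for the kinase DYRK1A, rose by a log2 fold change of 0.23 (adjusted p = 0.0161, edgeR) between means of 49.4 ± 1.79 and 57.7 ± 2.54 CPM. Its call was lost with all 4 groups in one fit (adjusted p = 0.108, edgeR) and with no filter on low counts (adjusted p = 0.0965, edgeR). It was also lost without the muscle-rich Csn8AKO replicates 1 and 5 (adjusted p = 0.0666, edgeR).

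Klhl13, which acts with KLHL9 on Aurora B in cell division, was at 3.44, 3.23, 1.71, 2.36 and 2.06 CPM in Ctrl BAT and at 6.61, 2.88, 6.19, 5.47 and 6.88 CPM in Csn8AKO BAT. Csn8AKO replicate 2 lay among the Ctrl libraries and the other 4 lay above them (log2 fold change 1.14, SE 0.24, adjusted p = 0.00282, edgeR). Fbxo27, an F-box protein that binds glycoproteins, was at 0.701 to 1.86 CPM in Ctrl and 1.89 to 3.15 CPM in Csn8AKO BAT, narrowly without overlap (log2 fold change 1.09, SE 0.27, adjusted p = 0.00651, edgeR). Both calls held under every alternative run.

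**Figure D3:**
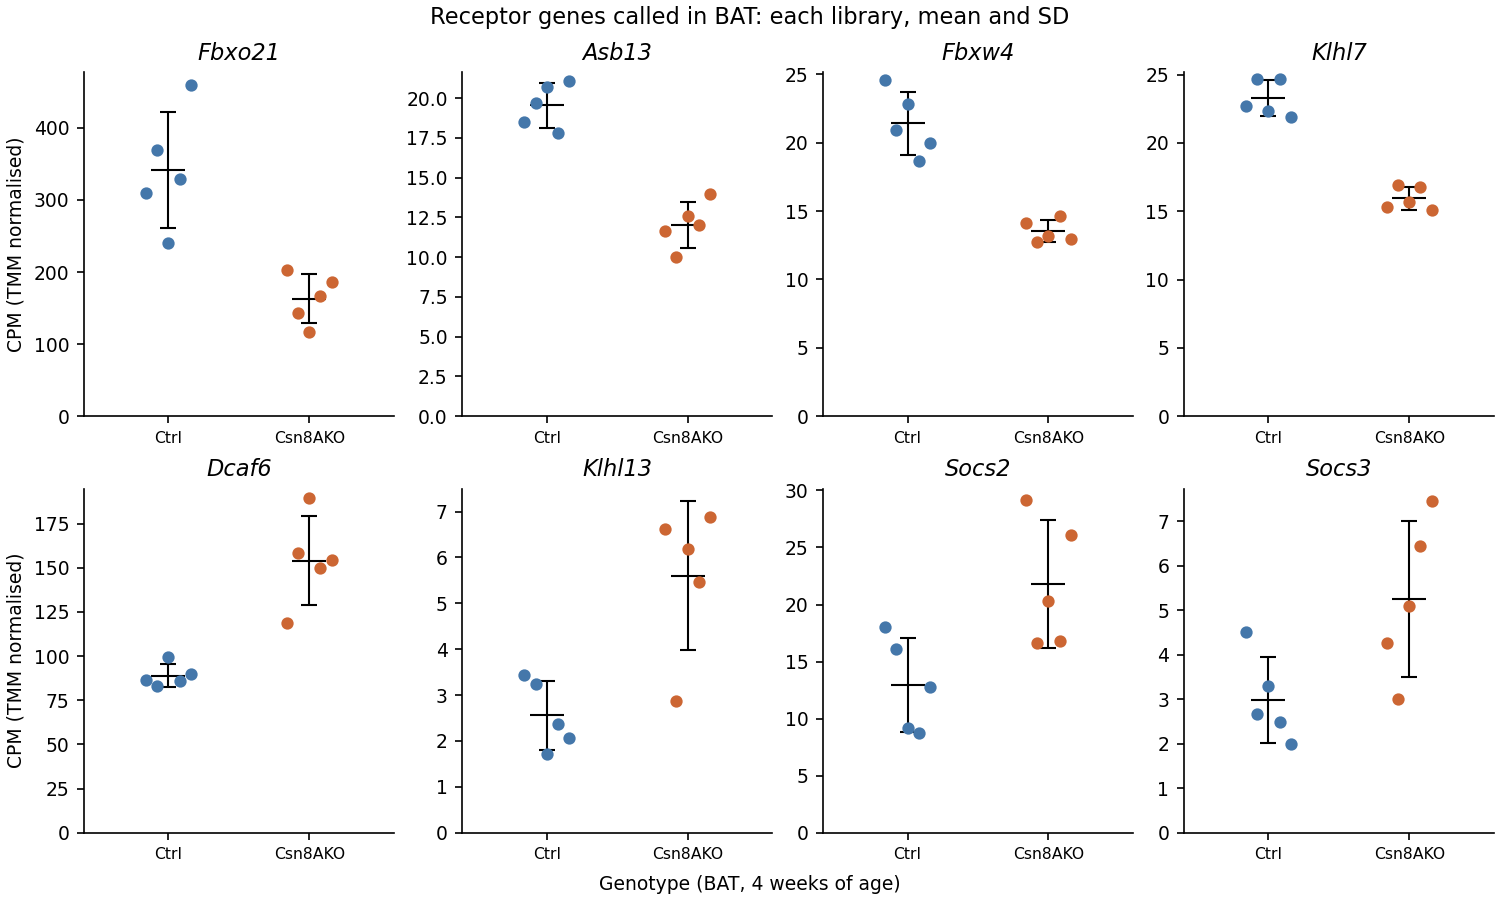
TMM-normalised CPM (linear axes from 0) in each Ctrl and Csn8AKO BAT library of 8 receptor genes called in BAT, with the mean and SD as bars. Fbxo21, Asb13, Fbxw4 and Klhl7 are lower and Dcaf6 is higher in every Csn8AKO library, whereas 1 or more Csn8AKO points of Klhl13, Socs2 and Socs3 lie among the Ctrl points.

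The Socs proteins end cytokine signals. They bind cytokine receptors or JAK kinases and bring them to CUL5. In BAT, Socs2, which limits the growth hormone receptor, and Socs3, which limits receptors such as those of IL-6 and leptin, rose. Socs3 was at 4.50, 2.68, 3.29, 2.49 and 1.98 CPM in Ctrl and at 4.27, 3.00, 5.09, 6.43 and 7.45 CPM in Csn8AKO BAT, with overlapping groups (log2 fold change 0.82, SE 0.26, adjusted p = 0.0250, edgeR). Socs2 was at 18.0, 16.1, 9.16, 8.74 and 12.8 CPM in Ctrl and at 29.1, 16.6, 20.3, 16.8 and 26.1 CPM in Csn8AKO BAT, also with overlap (log2 fold change 0.75, SE 0.23, adjusted p = 0.0267, edgeR). Socs1, which limits interferon signals, was at 0.258 to 1.09 CPM in Ctrl and 0.355 to 2.03 CPM in Csn8AKO BAT and did not pass the test (log2 fold change 1.21, SE 0.53, adjusted p = 0.106, edgeR). The calls for Socs2 and Socs3 were borderline, and each was lost when any of 5 libraries was left out, while the log2 fold change stayed between 0.47 and 0.91 for Socs2 and between 0.68 and 1.04 for Socs3 over all alternatives run. Without Csn8AKO replicates 1 or 5 or Ctrl replicates 3, 4 or 5, Socs2 had adjusted p-values of 0.056, 0.0624, 0.0583, 0.0515 and 0.0508 (edgeR), and without Csn8AKO replicates 4 or 5 or Ctrl replicates 2, 4 or 5, Socs3 had 0.0636, 0.0656, 0.0583, 0.0577 and 0.0539 (edgeR). With Csn8AKO replicates 1 and 5 both left out, the adjusted p was 0.172 for Socs2 and 0.0876 for Socs3 (edgeR). With all 4 groups in one fit it was 0.0556 and 0.0808, and with no filter on low counts it was 0.0856 for Socs2 (edgeR). In sWAT, Socs3 was at 10.2 to 21.1 CPM in Ctrl and at 15.9, 43.8, 13.2 and 18.1 CPM in Csn8AKO mice (log2 fold change 0.60, adjusted p = 0.445, edgeR). The high library, Csn8AKO replicate 2, was also the one with the highest summed level of 12 lymphocyte markers, 753 CPM, against 13.4 to 42.5 CPM in the other Csn8AKO sWAT libraries, and the part of these cells in the Socs3 level was not tested. Klhl6, a CUL3 receptor of B lymphocytes that was named after its values were seen, was likewise highest in that library at 32.1 CPM, followed by Ctrl replicate 1 at 18.7 CPM, the Ctrl library with the highest lymphocyte sum (376 CPM).

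STAT transcription factors switch on several Socs genes and bind TTCNNNGAA, a motif that reads the same on both strands. Among the 14 receptor genes that rose in BAT, 12 were found in the RefSeq promoter table (GRCm38.p6, 250 bases before to 50 after the start), and 4 of them held the motif (33.3%). Of the 22 that fell, 17 were found and 0 held it. Of the 104 receptor genes found, 8 held it (7.69%), as did 9.55% of all 27025 genes in the table. Of the 7 Socs genes 3 were found and 1, Socs3, held it, whereas Socs2 had no entry and was not searched. The E-box CANNTG, also the same on both strands, was in 8 of the 12 promoters of genes that rose (66.7%), 9 of the 17 of genes that fell (52.9%) and 75.0% of all genes. A match of letters is no evidence of binding. For Fbxo27 the table has 3 overlapping promoter windows that hold the same match, of which the first is given. One promoter of each of these 4 genes runs as follows, 5′ to 3′ on the strand of the gene, with the motif in capitals.
Socs3 (chr11:117969317-117969616, minus strand): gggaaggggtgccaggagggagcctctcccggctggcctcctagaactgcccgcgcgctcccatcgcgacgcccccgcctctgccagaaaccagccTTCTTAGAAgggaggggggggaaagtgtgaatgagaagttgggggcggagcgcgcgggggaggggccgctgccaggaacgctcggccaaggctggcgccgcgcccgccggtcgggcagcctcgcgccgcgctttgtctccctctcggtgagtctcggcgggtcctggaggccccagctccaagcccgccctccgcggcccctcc
Klhl13 (chrX:23285758-23286057, minus strand): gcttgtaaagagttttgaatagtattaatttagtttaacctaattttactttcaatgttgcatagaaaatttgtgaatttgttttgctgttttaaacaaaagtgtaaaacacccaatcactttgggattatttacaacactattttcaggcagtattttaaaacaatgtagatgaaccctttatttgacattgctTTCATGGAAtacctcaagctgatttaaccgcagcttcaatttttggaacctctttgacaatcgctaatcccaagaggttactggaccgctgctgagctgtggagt
Fbxo27 (chr7:28692788-28693087, plus strand): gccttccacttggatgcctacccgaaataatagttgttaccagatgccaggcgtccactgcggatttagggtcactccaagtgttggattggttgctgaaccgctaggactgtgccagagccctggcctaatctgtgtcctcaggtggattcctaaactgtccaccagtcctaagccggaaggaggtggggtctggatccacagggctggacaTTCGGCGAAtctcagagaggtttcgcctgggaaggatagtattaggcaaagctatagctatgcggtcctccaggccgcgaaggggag
Fbxl7 (chr15:26895515-26895814, minus strand): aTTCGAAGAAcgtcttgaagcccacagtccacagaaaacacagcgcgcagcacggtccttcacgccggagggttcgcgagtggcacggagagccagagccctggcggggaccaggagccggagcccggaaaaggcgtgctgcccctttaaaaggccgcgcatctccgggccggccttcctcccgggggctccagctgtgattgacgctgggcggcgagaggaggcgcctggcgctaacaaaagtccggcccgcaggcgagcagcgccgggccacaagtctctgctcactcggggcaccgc
The motif starts at base 97 of the window in Socs3, base 196 in Klhl13, base 214 in Fbxo27 and base 2 in Fbxl7. Fbxl7, the last of these, rose by a log2 fold change of 0.38 (adjusted p = 0.0429, edgeR), and its call was lost when any of 8 libraries was left out, every BAT library but Csn8AKO replicate 2 and Ctrl replicate 5, with adjusted p-values of up to 0.110 (edgeR).

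The other receptor genes that rose in BAT did so by less. They were Fbxl22, a protein of the cardiac sarcomere (log2 fold change 0.48), Fbxw9 (0.38), Fbxl8 (0.36) and Dcaf12 (0.24), with 2 more outside the rule for named genes, Klhl6 and Fbxo10, at 0.54 and 0.40. For Fbxl22, 9.94% of the length overlaps Herc1 on the other strand. The adjusted p-values (edgeR) of the first 4 lay between 0.0267 and 0.0444. Leaving out single libraries ended the call of Fbxl22 for Csn8AKO replicates 2 to 5 and Ctrl replicates 1, 2 and 5, and that of Dcaf12 for Csn8AKO replicates 3 to 5 and Ctrl replicates 1, 2 and 4. It ended that of Fbxl8 for Ctrl replicates 2 to 5, and that of Fbxw9 for Csn8AKO replicate 1 and Ctrl replicates 3 and 4, with adjusted p-values of at most 0.104 (edgeR) for these 4 genes. Csn8AKO replicates 1 and 5 held the most skeletal muscle RNA in BAT, as given below. Without both, 5 of the 14 receptor genes that rose were still called, namely Dcaf6, Fbxl14, Klhl13, Fbxo27 and Dcaf12. That fit had fewer Csn8AKO libraries, and the share of all genes still called in it is not given here. How far muscle RNA or the smaller number of libraries ended the other calls was not tested.

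By family, 4 of 17 tested Fbxl genes rose and 4 fell in BAT, 2 of 32 Fbxo genes rose and 8 fell, 1 of 9 Fbxw genes rose and 2 fell, 2 of 29 Klhl genes rose and 2 fell, 3 of 12 Dcaf genes rose and 3 fell, 0 of 10 Asb genes rose and 2 fell, and 2 of 7 Socs genes rose and 1 fell. These counts stand beside 16.0% of all genes higher and 15.8% lower. Of the Asb genes, 2 had an unadjusted p under 0.05 in the higher direction without passing the adjusted test in edgeR, Asb2 (adjusted p = 0.0604) and Asb6 (adjusted p = 0.0623), and DESeq2 and limma voom called 2 higher each. The median log2 fold changes were -0.02 for Fbxl, -0.11 for Fbxo, 0.06 for Fbxw, -0.04 for Klhl, 0.09 for Dcaf, 0.05 for Asb and 0.26 for Socs genes, beside 0.01 for all genes tested. Among the CUL1 receptors together, 7 rose and 14 fell of 58 tested, and with totals alone 8 rose and 5 fell. In edgeR with TMM factors, Socs was the 1 family with more members called higher than lower, 2 against 1, and both higher calls were borderline. DESeq2 and limma voom each called 4 Dcaf genes higher and 3 lower. With totals alone Fbxl (4 higher, 1 lower), Klhl (3 and 1) and Dcaf genes (4 and 1) had more called higher as well, and the Fbxo genes were split evenly (3 and 3). Over all genes 4183 were then called higher and 2087 lower. Fbxw7 and Fbxo5, receptors known from the cell cycle, did not pass the test in either tissue. Fbxw7, the receptor for cyclin E and MYC, had a log2 fold change of 0.18 in sWAT (adjusted p = 0.497, edgeR) and 0.10 in BAT (adjusted p = 0.419, edgeR), and Fbxo5, which holds back the anaphase-promoting complex, had 0.23 and 0.05 (adjusted p = 0.806 and 0.867, edgeR).

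Some receptors are known from skeletal muscle, and several were highest in the libraries with the most skeletal muscle RNA. The summed level of 21 skeletal muscle markers was 497 to 5991 CPM in Ctrl sWAT, 223 to 3690 CPM in Csn8AKO sWAT, 21.1 to 35.8 CPM in Ctrl BAT and 28.3 to 605.8 CPM in Csn8AKO BAT, and 0 of the markers were at 0 in every library of a tissue. The highest libraries were Ctrl replicate 3 and Csn8AKO replicate 4 in sWAT, and Csn8AKO replicates 5 and 1 in BAT (605.8 and 325.5 CPM, against 28.3 to 37.7 CPM in the other Csn8AKO BAT libraries). Klhl31 and Asb5 were named after their values were seen. Klhl31, a muscle BTB-Kelch protein, was at 1.31, 5.01, 19.4 and 1.97 CPM in Ctrl sWAT and at 0.417, 0.0905, 3.86 and 13.0 CPM in Csn8AKO sWAT. Its highest libraries in each tissue were the same ones, at 0.742 and 0.802 CPM in Csn8AKO BAT replicates 1 and 5 against at most 0.0687 CPM in the other BAT libraries. Klhl40 and Klhl41, which stabilise proteins of the muscle thin filament, were also highest in Ctrl replicate 3 in sWAT, at 1.19 and 5.98 CPM, and in Csn8AKO replicate 5 in BAT, at 0.936 and 1.84 CPM. Asb5 did the same, at 5.51 and 0.501 CPM. Asb2, the receptor for filamins, was at 1.04 ± 0.239 CPM in Ctrl and 1.80 ± 0.773 CPM in Csn8AKO BAT (SD, n = 5 each) and did not pass the test (log2 fold change 0.80, adjusted p = 0.0604, edgeR). How far muscle RNA set these levels was not tested.

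Fbxo40, a muscle F-box protein that targets the insulin receptor substrate IRS1, went the other way in BAT. It was at 1.63, 2.37, 5.02, 4.74 and 1.35 CPM in Ctrl BAT and at 0.962, 0.986, 0.206, 0.397 and 0.969 CPM in Csn8AKO BAT. Every Csn8AKO library was below every Ctrl library, with 0.962 and 0.969 CPM in the 2 muscle-rich ones (log2 fold change -2.12, SE 0.48, adjusted p = 0.00573, edgeR). In sWAT it was highest in the muscle-rich libraries, at 6.40 CPM in Ctrl replicate 3 and 4.26 CPM in Csn8AKO replicate 4, with overlapping groups (log2 fold change -0.49, adjusted p = 0.679, edgeR). Fbxo32, the muscle receptor known as atrogin-1, was at 16.1 ± 2.99 and 14.3 ± 1.71 CPM in BAT (log2 fold change -0.17, adjusted p = 0.364, edgeR).

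**Figure D4:**
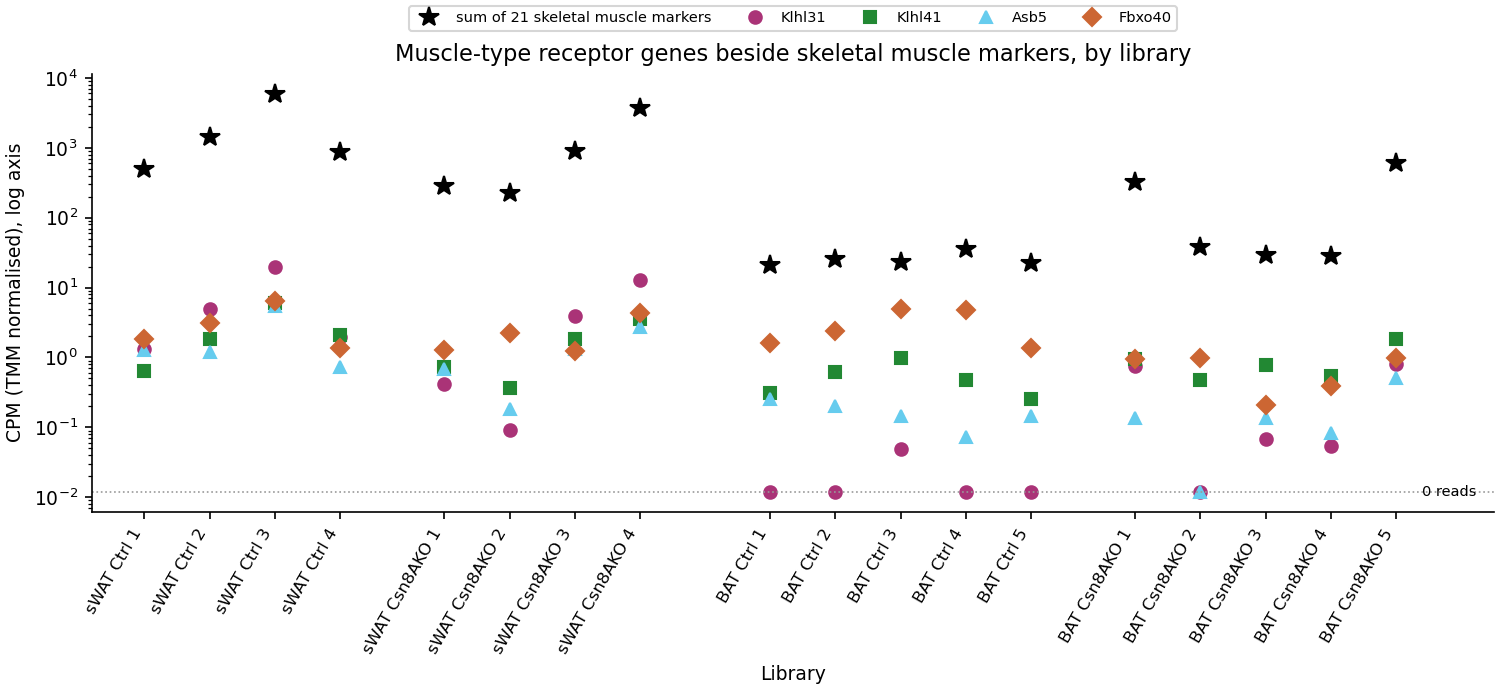
TMM-normalised CPM (log axis, 0 reads drawn on the dotted line) in each library of the summed 21 skeletal muscle markers, Klhl31, Klhl41, Asb5 and Fbxo40. Klhl31, Klhl41 and Asb5 are highest where the marker sum is highest, whereas Fbxo40 is lowest in the Csn8AKO BAT libraries, between 0.206 and 0.986 CPM.

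The genotypes also differed in markers of other cells. Adipocyte markers summed to 25028 to 33164 CPM in Ctrl and 8295 to 19996 CPM in Csn8AKO sWAT (6 of 15 fell, 0 rose) and to 22171 to 28238 and 17514 to 22180 CPM in BAT (5 of 15 fell and 1 rose). Macrophage markers summed to 1369 to 1881 CPM and 2332 to 3869 CPM in sWAT (10 of 15 rose) and to 148 to 204 and 503 to 737 CPM in BAT (14 of 15 rose). Fibroblast and progenitor markers rose for 1 of 10 genes in sWAT and 10 of 10 in BAT. Brown adipocyte markers fell for 5 of 10 genes in sWAT and 3 of 12 in BAT, where 1 rose, and proliferation markers rose for 1 of 10 genes in sWAT and 8 of 10 in BAT. Endothelial and nerve markers rose for 4 of 9 and 4 of 6 genes in BAT. Of the adipocyte, macrophage and fibroblast lists, 0 markers were at 0 in every library of a tissue. The part of these cells in the receptor levels was not tested.

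The genotype difference itself was compared between tissues over all 18 libraries. It differed for 3 of 125 receptor genes (2.40%), against 2.36% of all 22509 genes tested. It was higher in BAT for 2 of them, against 1.61% of all genes, and lower for 1 (0.800%, against 0.755%), and 1 was higher by a log2 value of at least 1 (0.800%, against 1.37%) and 0 lower by as much (against 0.440%). The log2 fold change of Fbxo45 was higher in BAT than in sWAT by 0.93 (SE 0.21, adjusted p = 0.0177, edgeR), under every alternative run, and that of Fbxl5 was lower, with a difference of -0.77 (SE 0.18, adjusted p = 0.0266, edgeR). For Fbxl5 the call was lost with totals alone (difference -0.51, adjusted p = 0.604, edgeR), and the adjusted p rose to between 0.0502 and 0.0632 (edgeR) without BAT Csn8AKO replicate 4, BAT Ctrl replicates 1 or 2, sWAT Csn8AKO replicate 1 or sWAT Ctrl replicates 2 or 3. The third gene, Klhl30, had too few reads for a test in either tissue alone, at most 1.24 CPM in sWAT and 0.520 CPM in BAT (difference 3.71, SE 0.95, adjusted p = 0.0438, edgeR), and leaving out any of 14 of the 18 libraries ended that call, with adjusted p-values of up to 0.124 (edgeR). In sWAT Klhl30 was highest in the muscle-rich Ctrl replicate 3 and Csn8AKO replicate 4. Its highest BAT libraries were Csn8AKO replicates 4 and 1, of which the latter was muscle-rich. Over 19 skeletal muscle markers tested the same way, the median difference was 5.85 and 1 was called higher in BAT. The part of muscle RNA in the Klhl30 difference was not tested. For Klhl2 the difference of 0.74 did not pass the test (adjusted p = 0.0829, edgeR), and for Dcaf6 the difference of 0.70 did not (adjusted p = 0.0799, edgeR).

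Of the 35 receptor genes called in BAT that were tested in sWAT, 26 had the same sign there (74.3%), beside 82.6% of all genes called in BAT. Csn8AKO libraries lay below Ctrl libraries without overlap in both tissues for 5 of 110 receptor genes, Asb13, Dcaf8, Fbxw5, Klhl2 and Klhl7 (4.55%, against 3.78% of all 18288 genes tested in both). Above Ctrl in both tissues lay 0 receptor genes, against 2.49% of all genes.

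**Figure D5:**
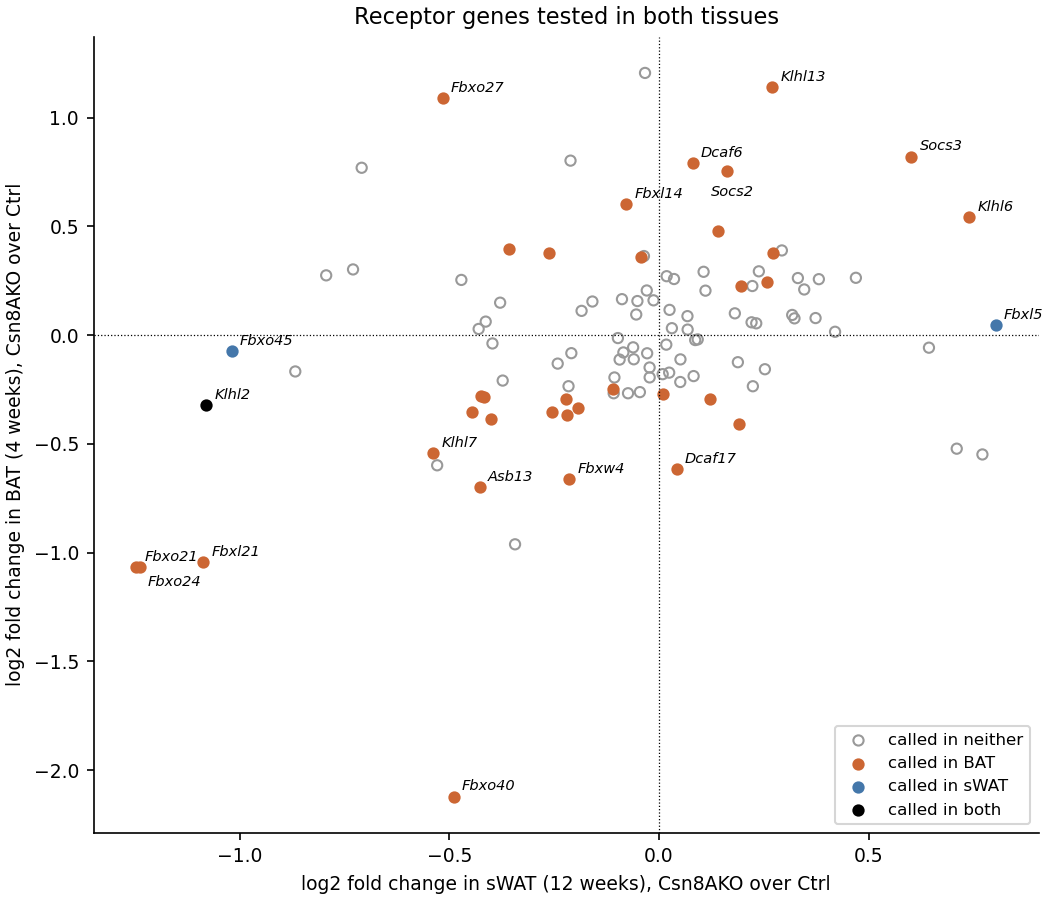
Log2 fold change (Csn8AKO over Ctrl) of the 110 receptor genes tested in both tissues, sWAT on the x axis and BAT on the y axis, coloured by where the adjusted p is under 0.05. Klhl2 is the gene called in both tissues, Fbxl5 and Fbxo45 lie near 0 on the BAT axis at 0.05 and -0.07, and Fbxo21 lies at -1.25 and -1.06.

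Cullins and adaptors carry the receptors. Of 20 cullin and adaptor genes, edgeR called 0 in sWAT, with 0 at an unadjusted p under 0.05 and 0 called by DESeq2 or limma voom. In BAT 1 rose and 3 fell, where 31.9% of all genes were called, and with totals alone 1 rose and 0 fell. The leading genes were Skp1a, which encodes the SKP1 adaptor of the F-box proteins (99.9 ± 6.52 to 76.7 ± 4.22 CPM, log2 fold change -0.38, adjusted p = 0.00118, edgeR), and Cul4b (log2 fold change -0.38, adjusted p = 0.00788, edgeR). Of 21 genes that attach or remove NEDD8, edgeR called 0 in sWAT, with 2 at an unadjusted p under 0.05 and 0 called by the other tools. In BAT 3 rose and 5 fell, against the same 31.9%, and with totals alone 3 rose and 1 fell. The 5 included Cops8, the gene deleted by design (log2 fold change -0.30, adjusted p = 0.0211, edgeR). Among those that fell under TMM scaling were Senp8, the protease that processes NEDD8 (4.68 ± 0.258 to 2.72 ± 0.235 CPM, log2 fold change -0.79, adjusted p = 3.61e-04, edgeR), and Cops7a, a signalosome subunit (log2 fold change -0.37, adjusted p = 7.48e-04, edgeR).

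Receptors outside the 7 families gave 1 gene higher and 1 lower of 59 tested in sWAT, where 2.30% and 3.00% of all genes were called, and 7 higher and 15 lower of 59 in BAT, against 16.0% and 15.8%. With totals alone 0 were called in sWAT, and 11 higher and 12 lower in BAT. Kctd2, a CUL3 receptor, fell in both tissues, with means of 32.6 ± 2.10 CPM in Ctrl and 21.7 ± 2.26 CPM in Csn8AKO sWAT (log2 fold change -0.58, adjusted p = 0.0278, edgeR) and of 35.4 ± 2.26 and 21.8 ± 2.11 CPM in BAT (log2 fold change -0.70, adjusted p = 3.64e-05, edgeR). Wsb1, a SOCS box receptor, rose in sWAT (log2 fold change 0.56, adjusted p = 0.0341, edgeR), and Rhobtb2, a CUL3 partner, fell in BAT (log2 fold change -0.69, adjusted p = 1.48e-05, edgeR). Of 34 tested JAK-STAT genes, 5 rose and 1 fell in sWAT and 9 rose and 7 fell in BAT, against the same shares of all genes. With totals alone 0 were called in sWAT, and in BAT 9 rose and 3 fell. Stat5a fell in sWAT (log2 fold change -0.84, adjusted p = 0.0186, edgeR) and the granulocyte receptor gene Csf3r rose (1.18, adjusted p = 0.0198, edgeR), while in BAT the prolactin receptor gene Prlr rose, with means of 2.05 ± 0.369 CPM in Ctrl and 7.29 ± 2.42 CPM in Csn8AKO mice (log2 fold change 1.83, adjusted p = 4.03e-05, edgeR) and Il10ra rose by 1.34 (adjusted p = 3.83e-05, edgeR).

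In sWAT 13 receptor genes and in BAT 11 had too few reads for the test and are given by their counts only. They included Klhl40 and Klhl30 in both tissues, Fbxo47 in sWAT (74 reads in all 8 libraries) and Klhl31 in BAT (77 reads in all 10 libraries).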

How the data were processed

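The authors aligned the reads of 18 libraries with STAR to the genome of Ensembl release 101 (GRCm38), counted uniquely aligned, unambiguous reads per gene with featureCounts and deposited 1 table per mouse, with the raw count, CPM, FPKM and TPM of 55487 genes. The strand setting of the counting is not given in the sources used here. The deposited CPM, FPKM and TPM were checked against the deposited count and not used further. Symbols were matched for 55141 genes.

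For each tissue, Csn8AKO and Ctrl counts of all genes were entered in edgeR 4.0.16 (R 4.3.3) with TMM factors, after filterByExpr (min.count 10, min.total.count 15). The test was the quasi-likelihood test with robust dispersions (Benjamini-Hochberg adjustment over all genes tested, calls at an adjusted p under 0.05). The difference between tissues was the genotype by tissue term over 18 libraries. CPM in the text are counts scaled by TMM library size. Totals of 15835721 to 66719937 reads limit the precision of genes under about 1 CPM. The p-values measure the spread between mice, 1 library each. DESeq2 1.42.0, limma 3.58.1 and other settings were run as alternatives. The model was tested on simulated counts with known changes, larger than most reported here, in genes expected to have at least 10 reads in each library. That test does not cover smaller changes or genes with fewer reads. Python 3.11.15 with pandas 2.3.3, numpy 2.4.6 and matplotlib 3.10.9 served for tables and plots.

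The receptor genes, gene lists and named genes were chosen with earlier results of these data known. Named were, in each tissue, up to 12 called receptor genes in each direction by adjusted p, up to 8 for the difference between tissues, the gene of highest Ctrl level per kilobase in each family, 10 genes fixed by name, and the 2 leading called genes of each list. Exceptions are stated.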

Additional observations from a re-analysis of the deposited data

Results flagged for a closer look

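Among 114 groups of 4 or 5 libraries for named receptor genes, 4 held a library far from the rest by Dixon's criterion, which chance flags in about 1 of 20 groups. Socs3 was at 43.8 CPM in sWAT Csn8AKO replicate 2, against 13.2 to 18.1 CPM in the other 3 libraries. Fbxl7 was at 8.16 CPM in BAT Csn8AKO replicate 2, below the 12.2 to 13.7 CPM of the other 4. Fbxo47 was at 1.40 CPM in BAT Ctrl replicate 1, above 0.757 to 0.941 CPM in the other 4. Klhl40 was at 0.936 CPM in BAT Csn8AKO replicate 5, above 0 to 0.219 CPM in the other 4, in the library with the highest skeletal muscle marker sum.

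The genotype difference was tested to differ between BAT and sWAT (edgeR, genotype by tissue) for Fbxo45, with a difference in log2 fold change of 0.93 (SE 0.21, adjusted p = 0.0177), for Fbxl5 with -0.77 (SE 0.18, adjusted p = 0.0266) and for Klhl30 with 3.71 (SE 0.95, adjusted p = 0.0438). Tissue and age cannot be told apart in this comparison. Klhl30 was highest in the muscle-rich libraries in sWAT, and the part of muscle RNA in its difference was not tested.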

How the results depend on the processing

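The number of receptor genes higher in Csn8AKO sWAT, 1 as reported, was 0 with scaling by library totals alone, with the replicate number as a block, without the 2 muscle-rich libraries and with a log2 fold change of 1 in addition, and 2 with limma voom and without the 2 lymphocyte-rich libraries, with 0 to 2 on leaving out single libraries (0 without Ctrl replicates 2, 3 or 4, and 2 without Csn8AKO replicate 2). The number lower in sWAT, 2 as reported, was 9 when the 4 groups shared one fit, 6 under DESeq2, 7 under limma voom and 4 without the lymphocyte-rich libraries, with 1 to 3 on leaving out single libraries (1 without Csn8AKO replicate 3 or Ctrl replicates 3 or 4). In BAT, 14 higher became 6 with all 4 groups in one fit, 8 with no filter on low counts, 5 without the muscle-rich libraries and 2 with a log2 fold change of 1, with 7 to 19 on leaving out single libraries (7 without Csn8AKO replicate 5, 8 without Ctrl replicates 2 or 4, and 9 without Csn8AKO replicate 4). The 22 lower became 8 with totals alone and 5 with a log2 fold change of 1, with 16 to 25 on leaving out single libraries. For the difference between tissues, 3 became 6 with DESeq2, 7 with limma voom, and 1 with the replicate block or a log2 fold change of 1, with 1 to 8 on leaving out single libraries (8 without sWAT Csn8AKO replicate 4, and 1 without BAT Csn8AKO replicate 4, BAT Ctrl replicate 2, sWAT Csn8AKO replicate 1 or sWAT Ctrl replicates 2 or 3). The lymphocyte-rich and muscle-rich libraries were chosen after seeing the data. Over all genes, the 1000 calls in sWAT became 434 with totals alone, 1946 with DESeq2, 2155 with voom and 299 with the replicate block. In BAT the 7121 calls over all genes became 6270, 7967, 9003 and 6776 under the same settings. Those with totals alone were 4183 higher and 2087 lower, beside 3585 and 3536 in the main fit. All-gene counts for the single fit of 4 groups, for no low-count filter and for fits without some libraries are not given here. The cause of the moves in these counts was not tested. The added fold change cutoff can only lower a count, and fits that left out libraries rested on fewer mice.

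Of 32 called fold changes of named receptor genes, 0 changed sign under any alternative run, whereas 12 of 24 that were not called did under at least 1, among them Fbxo45 and Fbxl5 in BAT and Asb2, Fbxo40, Klhl41, Socs1 and Socs2 in sWAT. The sample labels do not say whether same-numbered Ctrl and Csn8AKO libraries belong together, and the main fits did not pair them. The correlations of their deviations from the group means ran from -0.387 to 0.223 in sWAT and from -0.0975 to 0.101 in BAT. With 4 or 5 libraries in a group, these values cannot settle whether the libraries were paired. The replicate block ended the calls of Fbxl5 in sWAT (adjusted p = 0.0588) and of Fbxo40 (0.0592), Socs3 (0.0624), Fbxl7 (0.0713) and Fbxl8 (0.0559) in BAT, and of Fbxl5 (0.0715) and Klhl30 (0.144) for the difference between tissues (edgeR). Genes under about 1 CPM rest on few reads in the shallower sWAT libraries.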
